A study of Mus musculus with 3 samples.

Results

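Divergent protein-coding promoter pairs are places where 2 protein-coding genes start close together on opposite strands and are transcribed away from each other. They were found in the GENCODE M21 basic annotation of the mouse build mm10. A pair was a minus-strand gene and a plus-strand gene, head to head, whose most upstream coding transcription start sites (TSSs) lay 0 to 1000 bp apart, and its region ran from 500 bp before the first TSS to 500 bp after the second. This gave 779 pairs with 1543 genes, which is 7.06% of the 21851 protein-coding genes of the autosomes and sex chromosomes. Of these genes, 15 belonged to 2 pairs. Neighbouring pair regions overlapped in 15 cases, so some loci counted more than once. The rule uses the annotation and no measured value.

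The measurements came from DNase-seq, which cuts accessible chromatin with the nuclease DNase I and sequences the cut ends, so that open regions appear as peaks and short stretches shielded by bound protein appear as footprints. The tissue was embryonic liver at 13.5 days from Mus musculus of strain C57BL/6N,129, given as WT with a single copy of the A20 YAC, so every library carried this yeast artificial chromosome, and sex was not collected. The 3 libraries, numbered biological replicates 1, 2 and 3, had a separate biosample each and 1 donor identifier in common. They formed 1 group with no treatment or control, so each value stands for 1 library or is a mean ± SD over all 3 (n = 3), no test between conditions was possible, and how much of the spread is technical cannot be told from these labels.

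A divergent promoter places 2 start sites in or beside one stretch of open chromatin, from which RNA polymerase can leave in either direction. Such promoters in mammals are mostly rich in CpG dinucleotides and lack a TATA box, and many drive genes that all cells use, among them genes of DNA repair, mitochondria and protein synthesis. The gap between the start sites is short enough for transcription factors bound there to serve both genes. At this age the liver is the main site of red cell formation, and erythroid precursors outnumber the hepatoblasts that will form its epithelium.

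The distance between the 2 TSSs is called the gap. Gaps ran from 0 to 996 bp, with quartiles of 75, 144 and 276 bp, and regions were at most 1997 bp long. The stretches between the TSSs of 9 pairs follow. The first 3 belong to pairs among the 10 with the highest signal, the next to the pair of Blvrb, a gene of haem breakdown, whose signal came close to theirs in replicates 2 and 3, and the next 4 to pairs described in many mammals whose gaps differ in length and in motifs. The last is the gap of 2 basement membrane collagen genes, which had a listed peak in 1 library. Each is the plus strand of mm10, 5′ to 3′, read from the RefSeq sequence of that build. The minus-strand gene, named first, starts at the base before it, and the plus-strand gene starts at the base after it. Capitals mark matches, on either strand, to the 13 short motifs that were searched (in these lines the GC box GGGCGG, the CCAAT box and the E2F motif GCGGGAA).
Rita1/Ddx54, chr5:120612590-120612738: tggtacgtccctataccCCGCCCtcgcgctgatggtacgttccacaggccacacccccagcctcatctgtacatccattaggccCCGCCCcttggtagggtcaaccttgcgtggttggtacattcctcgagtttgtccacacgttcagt
Pdhx/Apip, chr2:103073514-103073674: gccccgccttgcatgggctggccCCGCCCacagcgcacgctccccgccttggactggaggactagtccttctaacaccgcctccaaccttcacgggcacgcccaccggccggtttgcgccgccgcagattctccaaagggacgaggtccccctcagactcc
Aamp/Pnkd, chr1:74284739-74284929: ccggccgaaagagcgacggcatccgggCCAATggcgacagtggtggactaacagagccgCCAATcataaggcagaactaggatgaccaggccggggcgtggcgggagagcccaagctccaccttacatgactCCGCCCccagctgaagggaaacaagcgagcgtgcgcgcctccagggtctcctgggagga
Sptbn4/Blvrb, chr7:27447687-27447977: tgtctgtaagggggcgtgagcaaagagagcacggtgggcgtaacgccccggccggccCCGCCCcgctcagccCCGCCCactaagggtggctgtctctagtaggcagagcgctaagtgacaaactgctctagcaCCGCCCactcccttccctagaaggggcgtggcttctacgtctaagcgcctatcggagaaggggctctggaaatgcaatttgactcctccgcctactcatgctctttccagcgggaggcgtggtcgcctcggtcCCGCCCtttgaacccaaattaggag
Mrps12/Sars2, chr7:28741821-28742001: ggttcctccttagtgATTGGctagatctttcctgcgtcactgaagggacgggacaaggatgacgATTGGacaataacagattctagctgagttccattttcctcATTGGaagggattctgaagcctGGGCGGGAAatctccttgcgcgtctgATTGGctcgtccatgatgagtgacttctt
Hscb/Chek2, chr5:110839778-110839999: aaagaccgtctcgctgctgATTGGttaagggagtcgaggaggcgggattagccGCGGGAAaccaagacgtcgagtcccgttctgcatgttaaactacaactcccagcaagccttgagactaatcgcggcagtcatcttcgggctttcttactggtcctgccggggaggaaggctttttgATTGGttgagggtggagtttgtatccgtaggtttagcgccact
Brca1/Nbr1, chr11:101551880-101552148: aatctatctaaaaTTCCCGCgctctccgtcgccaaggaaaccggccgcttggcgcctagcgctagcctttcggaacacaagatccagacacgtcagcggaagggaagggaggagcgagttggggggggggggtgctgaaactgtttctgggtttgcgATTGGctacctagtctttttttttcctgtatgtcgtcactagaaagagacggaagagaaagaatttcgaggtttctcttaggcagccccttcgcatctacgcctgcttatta
Sdha/Ccdc127, chr13:74350281-74350308: attctgcgcctgcgcaacacgcccctcc
Col4a4/Col4a3, chr1:82586850-82586975: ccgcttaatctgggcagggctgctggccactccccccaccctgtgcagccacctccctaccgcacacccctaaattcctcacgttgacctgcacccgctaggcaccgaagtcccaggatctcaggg

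The gap of Blvrb held 4 GC boxes, the sites of Sp and KLF factors, and each of them was overlapped by a footprint in all 3 libraries. The GC boxes of Rita1/Ddx54, Pdhx/Apip and Aamp/Pnkd were likewise within footprints in all 3 libraries. Here and below, a motif is called within a footprint where a footprint overlaps it by at least 1 bp. The gap of Mrps12/Sars2 held 4 CCAAT boxes, the site of NFY, all read on the minus strand, and of these 1 was overlapped by a footprint, in replicate 2 only. That gap also held a GC box and an E2F motif that share 4 bases, both within a footprint in replicates 2 and 3. The E2F motif of Hscb/Chek2 was within a footprint in all 3 libraries, and that of Brca1/Nbr1 in replicate 3. No searched motif was found in the gap of Sdha/Ccdc127 or in that of Col4a4/Col4a3.

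The libraries differed in size. Their peak lists held 34369, 122281 and 60862 peaks and their footprint lists 89836, 342756 and 156638 footprints in replicates 1, 2 and 3. Peak signal is the value the authors deposited for each peak, scaled per library in a way not given in the sources used here, so a signal is compared within its library, and a ratio of signals between 2 libraries has a meaning only beside the same ratio of other regions. Between libraries a pair is placed by its percentile, the percentage of 19392 one-gene promoters with a lower signal. One-gene promoters belonged to genes in no pair, with no other most upstream coding TSS within 1000 bp, and were 1145 bp long, the median length of the pair regions. Promoters of 39 erythroid marker genes had a peak in 32, 39 and 37 cases in replicates 1, 2 and 3, and those of 21 hepatoblast markers in 4, 18 and 16. Of 7 neural markers 1, 5 and 1 had a peak, and of 7 endothelial markers 2, 4 and 3. It was 1, 4 and 2 of 6 mesenchymal markers, 2, 4 and 2 of 5 muscle markers and 0, 3 and 1 of 4 germline markers. Over all protein-coding genes the share was 50.4%, 63.5% and 52.7%. The part of these differences between libraries in the pair values was not tested.

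Nearly all divergent pairs had a peak. In replicate 1 a peak overlapped 723 of 779 pairs (92.8%). In replicates 2 and 3 it was 746 (95.8%) and 726 (93.2%), and the mean share was 93.9% ± 1.61. Over all protein-coding genes, taken 1 promoter at a time, the share with a peak was 50.4%, 63.5% and 52.7% in the same libraries. A peak was present in all 3 libraries at 719 pairs (92.3%), against 48.1% of all protein-coding genes, in 2 libraries at 10 pairs, in 1 at 18 and in none at 32. One-gene promoters had a peak in 45.9%, 60.0% and 48.4%, most often in replicate 2, which had the most peaks.

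The difference between pairs and one-gene promoters was 42.5 ± 5.92 percentage points, and it had the same sign in each library. A pair's region holds 2 start sites and a one-gene window 1, and pairs were richer in CpG, with a median observed-to-expected ratio of 0.761 against 0.497. In the upper 3 of 5 bins of that ratio, a choice made after seeing the data, the difference was 16.9 ± 7.17 points. One-gene promoters with a non-coding TSS on the other strand within 1000 bp upstream, 975 in number, had a peak in 78.9% ± 6.33, and against these, also chosen after seeing the data, the difference was 15.1 ± 4.73 points.

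Pairs also carried stronger peaks. The strongest peak of a pair had a median signal of 4.17 in replicate 1, 11.8 in replicate 2 and 8.98 in replicate 3, where one-gene promoters with a peak had 2.73, 3.91 and 3.66. The ratio of the medians was 1.52, 3.02 and 2.45, with a mean of 2.33 ± 0.754. With equal numbers of the strongest peaks in each library the mean ratio was 1.77 ± 0.219. With the shorter of the 2 deposited peak lists it was 1.91 ± 0.488. On the list used here and within the CpG bins used above, the ratio was 1.23, 1.62 and 1.71 in the richest bin, 1.42, 2.11 and 2.08 in the next and 1.87, 4.41 and 3.60 in the middle one, so the pairs' median was the higher in each of these bins and libraries. Against the one-gene promoters with a non-coding divergent TSS, whose medians were 3.40, 7.23 and 5.41, the mean ratio was 1.51 ± 0.244. The median pair stood at percentile 85.6, 87.0 and 88.6. Of all pairs, 35.6%, 41.7% and 44.0% lay above the 90th percentile of one-gene promoters.

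**Figure D1:**
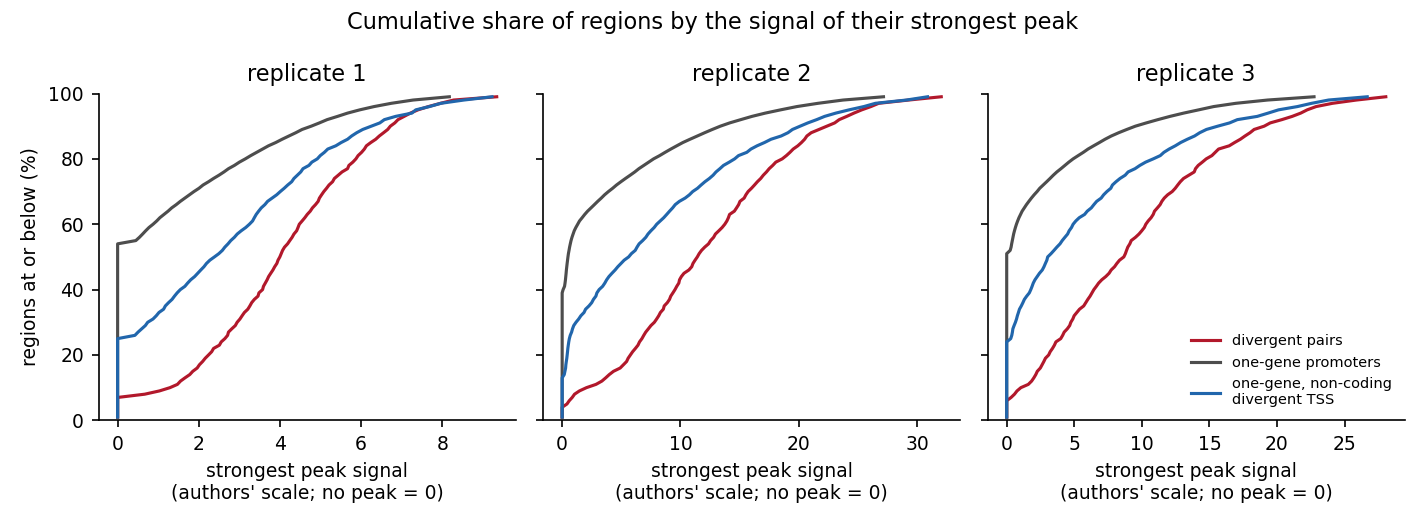
Cumulative share of regions (y axis, %) at or below a given signal of their strongest peak (x axis, the authors' scale, regions without a peak at 0) in each library, for divergent pairs (red), one-gene promoters (grey) and one-gene promoters with a non-coding divergent TSS (blue). The red curve lies furthest to the right over most of its course in each library, with medians among pairs with a peak of 4.17, 11.8 and 8.98, and the curves approach each other at the highest signals.

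Whether a pair had a peak went with its CpG content. Of the 348 pairs in the bin richest in CpG, 341 (98.0%) had a peak in all 3 libraries, and of the 283 in the next bin 275 did (97.2%). In the middle bin 101 of 118 did (85.6%). In the poorest 2 bins, with a ratio of at most 0.374, it was 1 of 7 and 1 of 23 pairs. One-gene promoters reached 85.9%, 77.3%, 51.3%, 7.70% and 0.894% from the richest bin to the poorest. The pairs' share was thus the higher in the upper 3 bins. In the second-poorest bin it was the lower, 4.35% of 23 pairs, and the poorest held only 7 pairs.

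**Figure D2:**
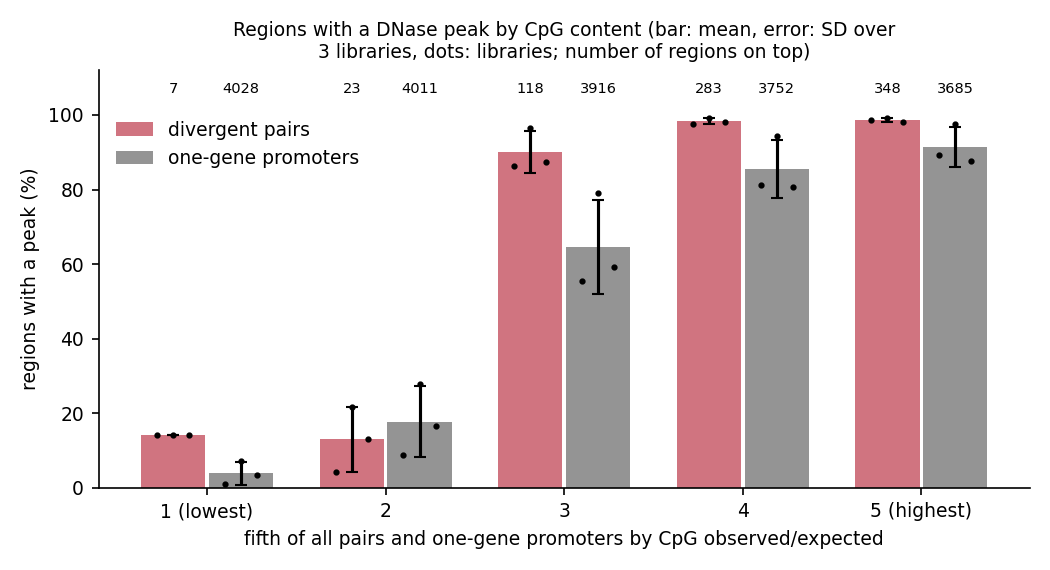
Share of regions with a peak (y axis, %) in 5 equal bins of all pairs and one-gene promoters by CpG observed-to-expected ratio (x axis), for divergent pairs (red) and one-gene promoters (grey), with bars at the mean, error bars at 1 SD over 3 libraries, dots for the libraries and the number of regions on top. In the upper 3 bins the red bars exceed the grey ones, with 97.2% and 98.0% of pairs in the top bins having a peak in all 3 libraries, while the lowest 2 bins hold only 7 and 23 pairs.

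Most head-to-head genes just outside the rule had peaks too. Where the 5′ ends overlapped by 1 to 1000 bp, 288 of 326 cases (88.3%) had a peak in all 3 libraries, with a mean percentile of 82.1 ± 0.272 for the median case. Where the TSSs lay more than 1000 and up to 2000 bp apart it was 104 of 127 (81.9%), at percentile 77.9 ± 1.34. Members nearest the upper limit were Proser3/Hspb6 at 996 bp, with signals of 4.65, 14.1 and 13.5 in replicates 1, 2 and 3, Btf3l4/Txndc12 at 987 bp and Asphd1/Sez6l2 at 981 bp. Just outside were Nacc1/Trmt1 at 1004 bp, with 2.68, 5.37 and 4.61, and 5330417C22Rik/1700013F07Rik and Ddias/Prcp, both at 1005 bp. At the lower limit Nsa2/Gfm2 at 0 bp had 3.07, 8.02 and 4.98, and Capza1/St7l, overlapping by 2 bp and so left out, had 2.58, 5.88 and 3.49.

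More than any other form, one peak covered both start sites. At 55.2% ± 0.818 of pairs with a peak, a single peak covered both TSSs. The midpoint of the strongest peak lay strictly between the TSSs in 65.6% ± 3.47 of pairs with a peak and between them or within 50 bp in 83.7% ± 2.46. Its median offset from the pair's midpoint was -2, 0 and 1 bp in replicates 1, 2 and 3. A median near 0 is built in, because pairs are laid out by genome strand. The lower and upper quartiles of the offset, averaged over libraries, were -47.2 and 42.4 bp. The strongest peaks of pairs were no wider than those of one-gene promoters, with medians of 240, 240 and 220 bp in both classes. All peaks together covered a median of 320, 300 and 312 bp of a pair and 263, 280 and 240 bp of a one-gene promoter. The lists give no summit, so midpoints were used.

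The arrangement followed the gap. With a gap under 100 bp, one peak covered both TSSs in 90.5% ± 0.519 of pairs with a peak. At 100 to under 200 bp it was 63.4% ± 2.41, at 200 to under 300 bp 23.7% ± 4.09 and at 300 to under 500 bp 8.57% ± 5.35. At 500 to 1000 bp no pair had one peak over both. The share with separate peaks over the 2 TSSs ran the opposite way, from 0.122% at the shortest gaps to 10.9% ± 2.14 at 200 to under 300 bp, 30.2% ± 3.84 at 300 to under 500 bp and 35.7% ± 4.93 at the longest. A peak over 1 TSS alone was the most frequent form from 200 bp on, at 60.3% ± 4.30, 46.9% ± 1.68 and 49.0% ± 3.23. Peaks between the TSSs that reached neither made up 13.2% ± 2.28 at 300 to under 500 bp and 11.4% ± 1.08 at the longest gaps. A peak of the median width of 240 bp cannot span a longer gap, so part of this order is built into the measure.

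**Figure D3:**
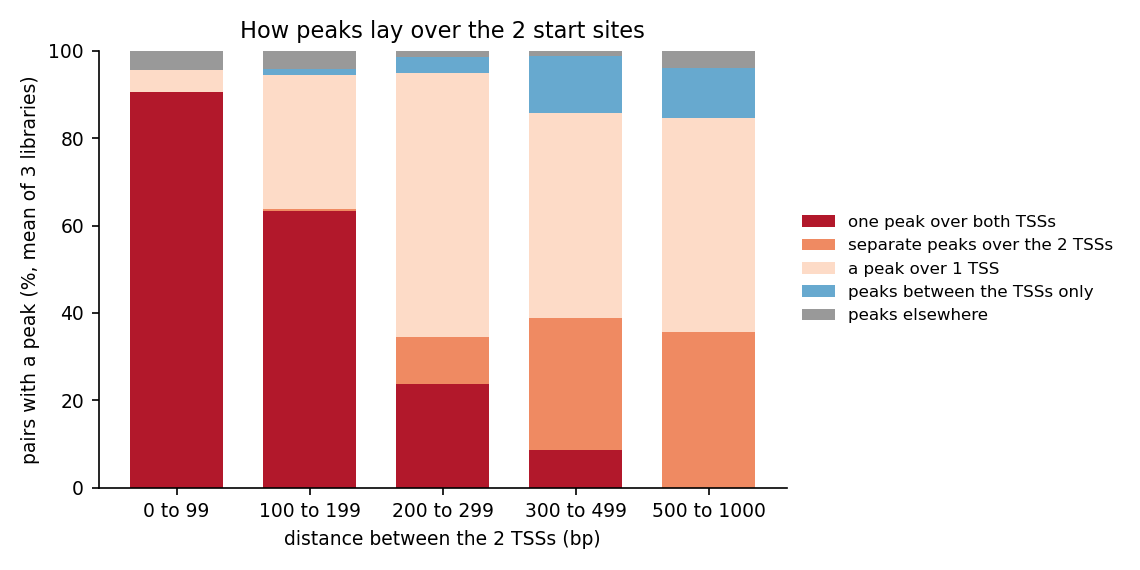
Share of pairs with a peak (y axis, %, mean of 3 libraries) by how peaks lie over the start sites, stacked for 5 ranges of the gap between the TSSs (x axis, bp). The share with one peak over both TSSs goes from 90.5% to 0% along the axis, and separate peaks over the 2 TSSs reach 35.7%.

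Averaged over the pairs, coverage by peaks was near symmetric. The order of the 2 genes is set by the genome strand, so this symmetry is built in and says nothing of single pairs. In each library coverage was highest near the midpoint, where it reached 72.1%, 75.4% and 73.2% of pairs, against 35.3%, 45.4% and 38.1% of one-gene promoters near their TSS. At 500 bp on the minus-strand gene's side 13.2%, 13.6% and 15.8% of pairs were covered, and at 500 bp on the plus-strand gene's side 13.4%, 14.0% and 16.05%. One-gene promoters were laid out by direction of transcription, unlike pairs. They were lopsided, with 2.73%, 5.36% and 3.67% covered 500 bp upstream and 9.56%, 15.5% and 9.97% covered 500 bp into the gene. In replicate 2 the gene side of one-gene promoters, at 15.5%, was more covered at that distance than either side of pairs, at 13.6% and 14.0%.

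**Figure D4:**
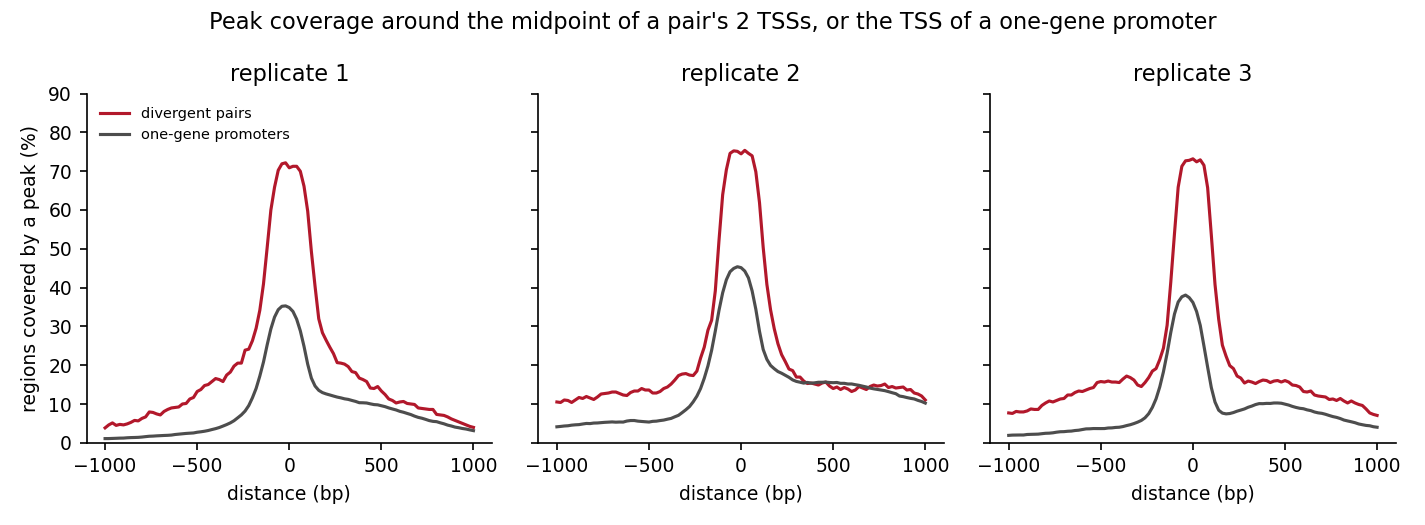
Share of regions covered by a peak (y axis, %) against distance from the midpoint of a pair's 2 TSSs or from the TSS of a one-gene promoter (x axis, bp, with the direction of transcription of one-gene promoters to the right), in each library. Pairs (red) peak at 72.1%, 75.4% and 73.2% with similar shoulders on both sides, and one-gene promoters (grey) have a shoulder only on the right. Pairs are laid out by genome strand, so the likeness of their shoulders is built in.

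Pairs with intermediate gaps were the strongest. The median percentile, averaged over libraries, was 84.6 ± 0.186 at gaps under 100 bp (284 pairs), 88.3 ± 1.54 at 100 to under 200 bp (211 pairs), 88.8 ± 3.15 at 200 to under 300 bp (108 pairs), 90.9 ± 1.77 at 300 to under 500 bp (89 pairs) and 85.0 ± 1.43 at 500 to 1000 bp (87 pairs). The shortest gaps lay below the 3 middle bins in every library, and the 2 ends differed by less than the spread over libraries. In replicate 1 the bins were closest, with median signals of 3.96, 4.37, 4.09, 4.62 and 4.23 from the shortest gap to the longest. In replicate 3 they were 6.80, 10.2, 10.9, 11.8 and 8.67. The median ratio of a pair's signal in replicate 3 to that in replicate 1 was 1.71 at the shortest gaps, 2.51 at 300 to under 500 bp and 1.98 at the longest, and 1.45 for one-gene promoters with a peak in all 3. By percentile, the median pair at gaps under 100 bp stood at 84.8 in replicate 1 and 84.4 in replicate 3, while at 200 to under 300 bp it stood at 85.2 and 91.1 and at 300 to under 500 bp at 89.2 and 92.7.

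The order of the pairs was alike between libraries. Over the 719 pairs with a peak in each, Spearman's rho of signal was 0.903 for replicates 1 and 2, 0.910 for replicates 2 and 3 and 0.751 for replicates 1 and 3. Over the 8421 one-gene promoters it was 0.948, 0.961 and 0.887. These are correlations across regions that share their 3 libraries and their base composition, and regions are not independent replicates. The SD of a pair's percentile over the libraries had a median of 2.42 and a highest value of 12.4, and it was 10 or more in 6 of the 719.

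Among the 10 pairs with the best worst rank over the libraries, Sugct/Mplkip, a mitochondrial CoA transferase gene and the gene of a protein that interacts with polo-like kinase, led with signals of 10.95, 38.7 and 33.3 in replicates 1, 2 and 3 at a gap of 423 bp. Rita1/Ddx54, a tubulin-binding modulator of Notch signalling and an RNA helicase, had 10.5, 33.1 and 31.5. Pdhx/Apip, a subunit of the pyruvate dehydrogenase complex and an enzyme of methionine salvage, had 10.5, 40.3 and 29.4. Each stood above percentile 99.7 of one-gene promoters in every library.

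Aamp/Pnkd, whose second gene is named for an inherited movement disorder, had 9.26, 40.5 and 34.3, the highest values of any pair in replicates 2 and 3. Dcaf6/Mpc2, a substrate adaptor of a ubiquitin ligase and a subunit of the mitochondrial pyruvate carrier, had 8.16, 32.2 and 29.3 at 572 bp. Others were BC005624/Usp20, Mphosph9/2810006K23Rik, Zfp654/Cggbp1 and Pcsk4/Reep6, the last with 7.97, 26.9 and 23.6. The lowest percentile of any of the 10 was 98.8, so they stayed near the top in each library.

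Zfp654/Cggbp1, a zinc finger gene and the gene of a CGG-repeat binding protein, showed the range of motifs in a strong gap. It had signals of 7.98, 30.7 and 30.1. Its 344 bp gap held 4 GC boxes, of which 3 were within footprints in all 3 libraries, an ETS motif within a footprint in all 3, and 2 CCAAT boxes, 1 of them within a footprint in all 3. Sugct/Mplkip held 7 GC boxes in its gap, and 3 of these were within footprints in every library.

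Of 24 pairs known in mammals and listed by name, 13 met the rule and 12 of these had a peak in all 3 libraries. The other 11, among them Surf1/Surf2, did not meet it in this annotation. Atm/Npat, the damage kinase gene and a histone transcription coactivator gene, had signals of 8.37, 26.7 and 22.5, at percentile 98.998 ± 0.157. Mcm4/Prkdc, a subunit of the replicative helicase and the catalytic subunit of DNA-PK, had 6.64, 26.5 and 21.7, at 98.1 ± 1.20.

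Brca1/Nbr1 and Hscb/Chek2 varied more between libraries. Brca1/Nbr1, with the homologous recombination gene Brca1 and the autophagy receptor gene Nbr1, had signals of 3.63, 17.3 and 22.1, and its percentile ran from 83.3 in replicate 1 to 98.8 in replicate 3. Hscb/Chek2, an iron-sulphur cluster cochaperone gene and a checkpoint kinase gene, had 3.95, 16.4 and 19.1, from percentile 85.3 to 97.9. Both were lowest in replicate 1 and highest in replicate 3. Nthl1, a DNA glycosylase gene, and Tsc2, a growth-signalling inhibitor gene, form Tsc2/Nthl1, which had 1.87, 4.38 and 2.55 at percentile 70.9 ± 0.923 and was the lowest of the 12.

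The other pairs of the list were open throughout. Gart/Son, an enzyme gene of purine synthesis and a splicing factor gene, had signals of 5.20, 14.1 and 13.0, and Mtx1/Thbs3, a mitochondrial import gene and a thrombospondin gene, had 3.06, 7.52 and 4.08. Hspd1/Hspe1, the 2 subunits of the mitochondrial chaperonin, had signals of 6.16, 17.1 and 9.41. Sdha/Ccdc127, with the flavoprotein subunit of succinate dehydrogenase and a gap of 29 bp, had 7.71, 21.0 and 13.7. Mrps12/Sars2, a mitochondrial ribosomal protein gene and a mitochondrial seryl-tRNA synthetase gene, had 4.61, 10.9 and 11.6. Hspd1/Hspe1 and Sdha/Ccdc127 had their highest percentile in replicate 1 and their lowest in replicate 3, the reverse of Brca1/Nbr1.

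Col4a4/Col4a3 was the exception among the 13. These genes encode chains of the collagen network of kidney and other basement membranes. The pair had no listed peak in replicates 1 and 3 and a signal of 0.288 in replicate 2, near that library's lowest value for a pair of 0.191. Its CpG observed-to-expected ratio was 0.422.

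Of the marker genes, 3 of 39 erythroid and 1 of 21 hepatoblast markers were in a pair, beside 7.06% of all protein-coding genes. Urod/Hectd3, with a haem synthesis enzyme gene and a gap of 904 bp, had signals of 4.23, 14.9 and 12.0, at percentile 90.6 ± 3.11. Uros/Bccip, with the next-earlier enzyme of the same route, had 5.69, 12.3 and 6.27, at 88.7 ± 5.18. Sptbn4/Blvrb, with the biliverdin reductase gene Blvrb, had 6.53, 33.0 and 32.6, at 98.7 ± 1.95. All 3 had a peak in every library, and the last came close to the strongest pairs in replicates 2 and 3.

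Foxa3/Sympk, with a liver transcription factor gene and an RNA processing scaffold gene, had 4.23, 13.6 and 8.09. Pecam1/Milr1, with an endothelial adhesion gene, lacked a listed peak throughout, and its CpG ratio was 0.332. No mesenchymal, neural, muscle or germline marker was in a pair.

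Genes of basic cell functions held most of the named groups. All 53 pairs with a mitochondrial gene had a peak in all 3 libraries, against 159 of 171 one-gene promoters of the group. The same was true of all 36 pairs with a splicing or RNA helicase gene (118 of 139), all 29 with a proteasome or ubiquitin gene (173 of 225) and all 25 with a translation gene (137 of 153). Of 34 pairs with a replication or repair gene 32 had a peak in all 3 (87 of 89), and of 21 with a vesicle transport gene 20 did (184 of 220). These counts stand beside 92.3% over all pairs. Median percentiles were 91.1 ± 0.502 for splicing, 90.7 ± 2.05 for replication and repair, 90.1 ± 1.98 for translation, 88.2 ± 1.97 for transport, 86.9 ± 0.866 for mitochondria and 85.9 ± 2.51 for proteasome and ubiquitin, beside 87.1 ± 1.53 over all pairs. The groups thus lay within a few percentiles of each other.

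Of tissue-restricted families, olfactory and vomeronasal receptors had 1406 one-gene promoters and 1 pair, Nt5c3/Vmn1r4, where all genes gave 19392 one-gene promoters and 779 pairs. Protocadherins had 68 one-gene promoters and no pair. Developmental transcription factors and signalling genes formed 3 pairs, all with a peak in all 3 libraries, beside 92.3% of all pairs. Among one-gene promoters of that group 38 of 240 had one, beside 43.4% of all one-gene promoters. A pair joined a group through either gene, so its other gene may lie outside the group, and 3 pairs are too few to compare. Collagens had 40 one-gene promoters and formed 1 pair.

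Most histone pairs rose in percentile from replicate 1 to replicate 3, a change that was not theirs alone. Brca1/Nbr1 and Hscb/Chek2 rose too, and the pair with the highest SD of percentile, 12.4, held no histone gene. In the histone clusters, H2A and H2B genes lie head to head, and their products are made when DNA is replicated. Of 14 pairs with a histone gene, 11 had a peak in all 3 libraries. Their median percentile was 73.9 in replicate 1, 80.6 in replicate 2 and 91.9 in replicate 3, and 10 of the 11 were higher in replicate 3 than in replicate 1. Over all 779 pairs the median percentile also rose, from 85.6 in replicate 1 to 87.0 in replicate 2 and 88.6 in replicate 3. How many of all pairs rose is not given here. Hist1h2bf/Hist1h2ad had signals of 2.32, 10.4 and 17.4. Hist1h2ah/Hist1h2bk had 1.90, 7.12 and 13.2. Bola1/Hist2h2ab, whose other gene is no histone gene, had 2.72, 5.93 and 3.29 and was the one that stood lower in replicate 3.

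The median ratio of replicate 3 to replicate 1 was 4.53 in the 11 histone pairs, 2.06 in all 719 pairs and 2.78 in the 43 one-gene histone promoters with a peak in all 3. These libraries also differ in peak number and in liver marker peaks, and the part of either in this difference was not tested. Of the 14 histone pairs, 9 had more than 50% of their 32-base words elsewhere in the genome, Hist1h2ap/Hist1h2br and Hist1h2bq/Hist1h2ao 100%, so reads there could be shared between copies and their values are uncertain.

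**Figure D5:**
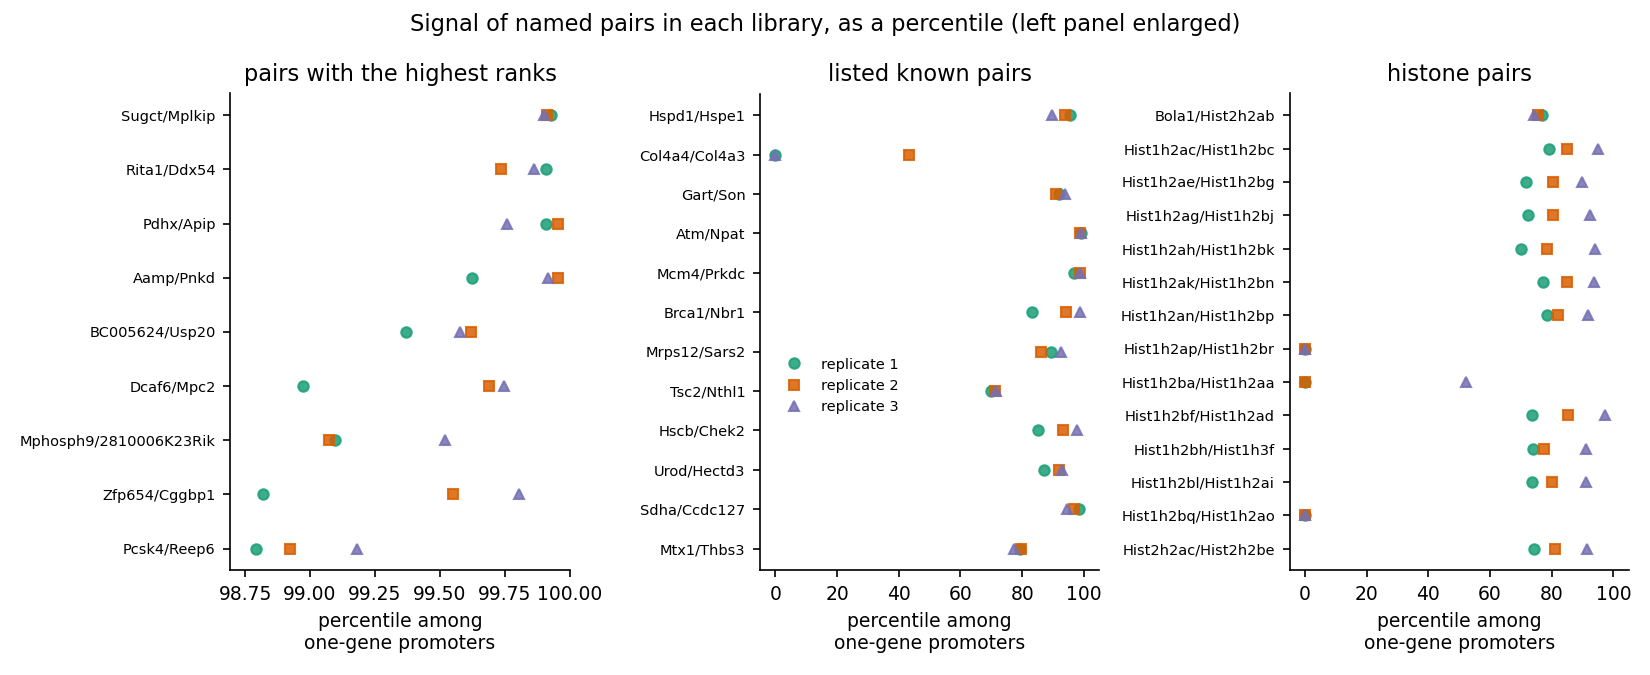
Percentile of a pair's signal among one-gene promoters (x axis) in replicates 1 (circle), 2 (square) and 3 (triangle), for 9 of the 10 pairs with the best worst rank (left, enlarged axis), 12 of the 13 listed pairs (middle) and the 14 histone pairs (right). The 3 symbols lie close together for most named pairs, while 10 of the 11 histone pairs with a peak in each library are lowest in replicate 1 and highest in replicate 3. The median percentile of all 779 pairs rose as well, from 85.6 in replicate 1 to 88.6 in replicate 3.

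Pairs lacked a peak mainly where CpG was low. Of the 32 pairs without a listed peak in any library, 25 had an observed-to-expected ratio below 0.4 and 8 held a predicted gene. Among them were Ifit1bl2/Ifit1 (interferon-induced genes), Duox2/Duoxa2 (an oxidase and its maturation factor), Plcz1/Capza3 (sperm genes), Kirrel2/Nphs1 (slit diaphragm genes of the kidney), Cd160/Pdzk1, Smyd1/Cd8b1 (a muscle and a T cell gene) and Dgcr2/Tssk1 (the second a testis kinase gene). In 31 of the 32 no position of the false discovery rate list, which holds positions at 0.05 or less, fell in the region in any library. At 7 of them a gene of the pair had another coding TSS with a peak in all 3 libraries. A region without a listed peak is not shown to be closed.

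Only 4 of the 32 had a ratio of 0.7 or more. They were Draxin/Mad2l2, Nr2e1/Ostm1 and the histone pairs Hist1h2ap/Hist1h2br and Hist1h2bq/Hist1h2ao, whose sequence is copied elsewhere. Draxin encodes an axon guidance protein and Nr2e1 a nuclear receptor of neural stem cells. Draxin/Mad2l2 had 21 listed positions, in replicate 2. Mad2l2, a gene of translesion DNA synthesis, and Ostm1 each had a further coding TSS with a peak in all 3 libraries.

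The 28 pairs with a peak in 1 or 2 libraries followed the number of peaks per library. The peak was in replicate 2 alone at 17, in replicates 2 and 3 at 6, in replicates 1 and 2 at 4 and in replicate 3 alone at 1, the histone pair Hist1h2ba/Hist1h2aa with a signal of 0.284. A gene is called predicted, here and above, by its symbol alone, which is Gm and digits or ends in Rik. Pairs with such a gene had a peak in all 3 libraries in 58 of 75 cases (77.3%) and the others in 661 of 704 (93.9%). On the X chromosome it was 17 of 22 (77.3%), with a median CpG ratio of 0.563.

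Nearly every pair with a peak held footprints. Of the pairs with a peak, 98.6%, 99.5% and 99.7% held a footprint in replicates 1, 2 and 3, a mean of 99.3% ± 0.579, against 95.7% ± 1.37 of one-gene promoters with a peak. A footprint was present in all 3 libraries at 708 pairs (90.9% of 779), where 46.0% of all protein-coding genes had one. The density was 5.35, 11.4 and 6.72 per kb of pair and 4.11, 7.62 and 4.85 per kb of one-gene promoter with a peak. The ratio was 1.39 ± 0.0974. Of 4688 footprints of replicate 1 in the 719 pairs, 3109 (66.3%) were overlapped by footprints of both other libraries.

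Footprints were denser and wider between the start sites than beside them. Among pairs with a peak and a gap of at least 50 bp, the gap held 12.8, 16.9 and 14.9 footprints per kb. The 500 bp on the minus-strand gene's side held 3.46, 9.86 and 4.63 and those on the plus-strand gene's side 3.87, 10.4 and 5.09. The median width was 12, 18 and 16 bp in the gap and 9, 11 and 12 bp on either side. Replicate 2 had the smallest contrast and the most footprints. One-gene promoters, with or without a peak, likewise had most footprint centres 40 bp upstream of the TSS, at 6.84, 9.72 and 7.82 per kb. At 400 bp into the gene they had 0.815, 2.90 and 0.913. Denser footprints at the start site were thus not particular to pairs. The part of peak position in the contrast was not tested. Over all 675 pairs with a gap of at least 50 bp, with or without a peak, positions of the false discovery rate list covered 81.6% ± 5.32 of the gaps and 71.7% ± 12.4 and 71.8% ± 11.7 of the sides, and they were the more frequent in the gap in each library.

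Motifs were described by exact matches on both strands, and a match is not a shown binding site. They were the GC box GGGCGG, the ETS motif CCGGAAGT, the NFY box CCAAT, the NRF1 motif GCATGCGC, the YY1 motif AAGATGGC, the ZBTB33-type motif CTCGCGAG, the CRE TGACGTCA, the E-box CACGTG, the E2F motif GCGGGAA, the GATA motif AGATAA, the TATA motif TATAAA, the AP-1/NFE2 motif TGAGTCA and the element ACTACAATT. GC box and E2F matches can overlap, as in Mrps12/Sars2. An NRF1 site can match on both strands, as in Mcm4/Prkdc, and then counts once per strand. Shares are of the 719 pairs and the 8421 one-gene promoters with a peak in all 3 libraries. The latter windows are of the pairs' median length, while pair regions vary in length.

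The GC box was in 93.3% of pairs and 89.5% of one-gene promoters, and the CCAAT box in 73.4% and 72.4%. ETS motifs were in 19.1% of pairs and 12.1% of one-gene promoters, YY1 motifs in 16.3% and 10.8%, E2F motifs in 33.2% and 24.8% and the element ACTACAATT in 2.64% and 1.22%. NRF1 motifs were in 11.1% and 9.05%, CREs in 7.09% and 5.12%, ZBTB33-type motifs in 4.87% and 3.63% and E-boxes in 25.2% and 24.1%. The lower shares in pairs were those of the TATA motif, with 18.8% and 27.1%, the GATA motif, the site of the red cell factor GATA1, with 21.3% and 26.6%, and the AP-1/NFE2 motif, with 8.90% and 10.5%. Matches within 500 bp downstream of a TSS were also counted, at 1438 TSSs of pairs and 8421 of one-gene promoters. ETS motifs numbered 91 and 520 there, YY1 motifs 117 and 598 and E2F motifs 243 and 1393. TATA motifs numbered 135 and 472, GATA motifs 167 and 527 and AP-1/NFE2 motifs 55 and 298. Per region, the shares thus do not measure motifs per TSS.

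Within the pairs the motifs had their own places. In 618 pairs with a gap of at least 50 bp and a peak in all 3 libraries, CCAAT boxes occurred at 3.97 per kb of gap and 1.00 per kb of the transcribed sides. GC boxes occurred at 5.85 and 2.46 per kb, NRF1 motifs at 0.433 and 0.0920, ETS motifs at 0.393 and 0.123 and CREs at 0.176 and 0.0339. YY1 motifs went the other way, at 0.102 per kb of gap and 0.163 per kb of the sides, and GATA motifs at 0.176 and 0.224. E2F motifs were even, at 0.345 and 0.331.

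YY1 motifs were also oriented. Of 117 matches within 500 bp downstream of a TSS of the 719 pairs, 94 (80.3%) read AAGATGGC on the strand being transcribed, and 66 (56.4%) began within 100 bp of the TSS. At one-gene promoters with a peak in all 3 libraries it was 465 of 598 (77.8%), so the orientation was found in both classes. ETS motifs were also near the TSS, with a median distance of 54 bp, and read CCGGAAGT on the transcribed strand in 49 of 91 matches (53.8%) in pairs and in 316 of 520 (60.8%) at one-gene promoters. GC boxes read GGGCGG on the transcribed strand in 62.4% of 1772 matches.

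The share of matches within footprints, that is overlapped by at least 1 bp, depended on the motif. NRF1 motifs in pairs were within a footprint in all 3 libraries in 114 of 135 cases (84.4%), and in one-gene promoters in 70.8% of 1111. CREs followed with 36 of 53 (67.9%) and 63.1%, then ZBTB33-type motifs with 19 of 39 (48.7%) and 38.5%. GC boxes had 29.7% of 2690 and 24.4% in one-gene promoters, YY1 motifs 24.1% of 133 and 13.1%, and CCAAT boxes 9.63% of 1309 and 6.16%. ETS motifs, with 23.6% of 161 and 26.4%, and the element ACTACAATT, with 10.5% of 19 and 19.4%, had the lower share in pairs. Of 194 GATA motifs in pairs 1 was within a footprint in all 3 libraries (0.515%), and 1, 24 and 15 were in replicates 1, 2 and 3. In one-gene promoters the share in all 3 was 1.28%. By library the shares were 0.515%, 12.4% and 7.73% in pairs and 2.34%, 7.43% and 4.72% in one-gene promoters. Pairs thus had the higher share in replicates 2 and 3 and the lower in replicate 1. Motifs differ in length: short ones occur more often by their letters alone, and long ones are overlapped more easily. Pairs also held more footprints per kb, at a ratio of 1.39 ± 0.0974 to one-gene promoters with a peak. The part of this in the shares was not tested.

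Base composition changed strand at the pair. Left of the minus-strand TSS the excess of G over C, as a percentage of both on the plus strand, was -6.64 over 500 bp, and right of the plus-strand TSS it was 6.87. In the left and right parts of the gap it was -2.42 and 2.41. Each side thus had more G than C on the strand of its gene's transcript. That the 2 sides were near mirror images is built in, because pairs were laid out by genome strand. CpG dinucleotides numbered 71.5 and 68.1 per kb in the 2 parts of the gap and 64.9 on both sides.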

How the data were processed

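Per the labels, the assay was DNase-seq in build mm10. The authors called peaks in each library separately from its filtered alignments, per the listings deposited beside them. The aligner, the callers and their versions were not given in the sources used here. Peak signal was deposited by the authors on a scale per library that no source states. The deposited false discovery rate lists give a q-value (adjusted p-value) per interval and hold values of at most 0.05. The deposited footprint lists carry the constant 0.01 in every row, so footprints had no score. Of the 2 deposited peak lists per library, the one with more peaks was used.

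Start sites came from the GENCODE M21 basic annotation, as the most upstream TSS over protein-coding transcripts. Sequence was RefSeq's GRCm38.p6, which is mm10, and no deposited peak (of the list used) or footprint ran past a chromosome end. A region had a peak or footprint where one overlapped it by at least 1 bp, and its signal was that of its strongest peak, or 0. With 1 group there was no contrast and no test; depth is unknown, because the lists give no read counts. Computation used Python 3.11.15, numpy 2.4.6, pysam 0.24.0, numba 0.67.0 and matplotlib 3.10.9, and overlap counting was tested on simulated peaks. Named pairs were the 10 whose poorest rank by signal in any library was best, pairs of a list of 24 known pairs, pairs with a red cell, liver or endothelial marker, those nearest the limits of the gap, and pairs without a peak; the 11 gene groups were matched by symbol, and 5 other pairs were named after their values were seen. The members and lists were chosen with earlier results of these data known. Alternatives tried were the other peak list, equal numbers of peaks per library, other flanks, gaps and windows, pairs without predicted genes, peak midpoints in place of overlap, and leaving out each library. A further 3, chosen after seeing the data, were the CpG bins, the comprehensive annotation and the non-coding divergent promoters. Values of a few named pairs are not reported here.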

Additional observations from a re-analysis of the deposited data

How the results depend on the processing

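The 6 summary results of the pairs were recomputed under 13 alternative settings, which gave 66 values. Of these, 56 stayed within 1 SD over the libraries and 10 moved further. The values without 1 of the 3 libraries could only stay, because leaving 1 out of 3 shifts a mean by less than 1 SD. The difference and the ratios, which alone have a point of equality, did not cross it. With the other peak list the share of open pairs holding a footprint was 99.9% and the ratio of footprints per kb was 1.29. With equal numbers of the strongest peaks in each library the difference in the share with a peak between pairs and one-gene promoters was 48.5 points and the ratio of footprints 1.27. A one-gene window of 500 bp on both sides gave a ratio of footprints of 1.24. The next alternatives were chosen after seeing the data. In the upper 3 of 5 CpG bins 97.2% of pairs had a peak and the difference was 16.9 points. Against one-gene promoters with a non-coding divergent TSS the difference was 15.1 points, the signal ratio 1.51 and the ratio of footprints 1.15. Without each library in turn the share of pairs with a peak was 93.0% to 94.5%, the difference 40.3 to 45.8 points, the signal ratio 1.99 to 2.74, the share of strongest peaks at the TSSs 82.3% to 84.6%, the share with a footprint 99.04% to 99.6% and the ratio of footprints 1.34 to 1.44. No paired analysis was possible because the libraries form 1 group. The lists give no read depth, so how far depth limits the 32 pairs without a peak was not tested. The window of a one-gene promoter holds 1 start site, and differences from pairs include that.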
